A study of Mus musculus with 2 samples.

Results

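The Hox gene clusters of mouse T cells are described here: the 39 protein-coding genes named Hoxa, Hoxb, Hoxc or Hoxd with a number, out of 21853 protein-coding genes. The clusters are HoxA on chromosome 6 with 11 genes, HoxB on chromosome 11 with 10, HoxC on chromosome 15 with 9 and HoxD on chromosome 2 with 9. Genes were chosen by symbol alone. Peaks were chosen by position, from 20 kb before to 20 kb after each cluster, which gave 101 of the 78016 peaks of replicate 1 and 88 of the 74653 peaks of replicate 2. Per the labels the assay was ATAC-seq, where a transposase cuts and tags accessible DNA, applied to primary T cells of C57BL/6NJ mice. There were 2 libraries in 1 group, labelled biological replicates 1 and 2 with the same donor record, and the labels give no treatment, genotype or age. Whether they came from separate animals is not known, so the spread between them may be technical. The deposited peaks are named with the terms Th0, 72hrs and ASTARR.insert. No label says what these terms mean, so the kind of library, and with it what a signal measures, rests on the labels alone.

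Hox genes encode homeodomain transcription factors that set position along the body axis of the embryo. They lie in tightly packed clusters in which all genes of a cluster point the same way, and genes at matching places in different clusters form a paralog group. Low-numbered groups act in anterior parts of the embryo and high-numbered groups in posterior parts. In blood, Hox genes of the HoxA and HoxB clusters and the cofactor gene Meis1 are known for their activity in stem and progenitor cells. In differentiated cells, Hox clusters are classic targets of Polycomb complexes, which keep genes silent, while Trithorax proteins keep them active.

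As deposited, each peak has a signal value, read here as fold enrichment over a background that the sources do not define, and a −log10 q. The sources used here give no read depth. A region that is not listed cannot be told from one below the peak threshold. In a bulk sample, a site weakly open in all cells and one strongly open in few cells also cannot be told apart. As a check of the T-cell label, 9 of 10 T-cell genes had a promoter region in both libraries, against 62.8% of all protein-coding genes, and Tcf7 had one in replicate 1 alone. The mean signals of the 9 had a median of 5.88 and a range of 2.53, at Cd2, to 10.3, at Lck. Of 4 B-cell genes, Pax5 had one in both libraries, with a mean of 10.3, as high as Lck, and Cd79a and Ms4a1 had none in either. Of 4 myeloid genes none had one in both libraries, and Cd14 had one in replicate 1 alone. Of 6 stem and progenitor genes, however, 5 had one in both libraries, with a median signal of 7.38. A CpG-rich start, as defined below, was held by 1 of the 10 T-cell genes and 3 of the 6 stem and progenitor genes. Of all genes, 95.1% with such a start and 40.4% without one had a region in both libraries. The check therefore does not tell T cells from progenitors.

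The DNA under the strongest region of each cluster is shown first, because these are the places where the clusters stood out most from their surroundings. Each stretch is 120 bases around the summit on the forward strand of mm10, and capitals mark CG dinucleotides, the targets of DNA methylation.
HoxA, chr6:52192084-52192203, upstream of Hoxa4: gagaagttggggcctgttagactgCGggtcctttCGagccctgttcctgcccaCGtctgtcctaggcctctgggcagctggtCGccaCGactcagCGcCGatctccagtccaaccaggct
HoxB, chr11:96311629-96311748, between Hoxb5 and Hoxb4: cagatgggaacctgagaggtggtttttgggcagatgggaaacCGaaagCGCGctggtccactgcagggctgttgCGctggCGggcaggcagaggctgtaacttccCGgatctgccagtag
HoxC, chr15:102987510-102987629, in an intron: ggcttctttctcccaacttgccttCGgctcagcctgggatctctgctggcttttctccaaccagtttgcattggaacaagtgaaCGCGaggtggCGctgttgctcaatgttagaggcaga
HoxD, chr2:74715901-74716020, in an intron of Hoxd3: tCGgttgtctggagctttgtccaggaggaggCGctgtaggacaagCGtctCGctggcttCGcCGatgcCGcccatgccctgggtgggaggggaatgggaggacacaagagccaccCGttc
The stretches hold 7, 6, 4 and 8 CG dinucleotides, with G and C making up 63.3%, 60.8%, 53.3% and 64.2% of the bases. Of these 4 regions, that of HoxA alone was a promoter region of a Hox gene.

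A promoter region was a peak with its summit within 1000 bp of a start of a protein-coding transcript. Of the 39 Hox genes, 32 (82.1%) had such a region in both libraries, against 62.8% of all protein-coding genes. Hox starts are often CpG-rich, and of all genes with a CpG-rich start 95.1% had a region in both libraries. Among Hox genes, 20 of the 22 with a CpG-rich start (90.9%) and 12 of the 17 without one (70.6%) had a region in both libraries, the second against 40.4% of all genes without a CpG-rich start. The Hox count depended on weak peaks. With a −log10 q of at least 5 in each library it was 22 of 39 (56.4%), against 61.5% of all genes. Among the 50000 peaks of highest signal in each library it was 12 of 39 (30.8%), against 56.9% of all genes.

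The regions at Hox promoters were weak. The median signal of the 32 genes, averaged over the libraries, was 4.07, with a range of 2.67 to 11.9, against 11.2 for the 13724 genes with a region genome-wide. Of the 32, 30 were below the genome-wide median and 27 were under the 25th percentile. A low signal was not particular to Hox genes. The 9 T-cell genes with a region in both libraries had a median of 5.88 and a range of 2.53 to 10.3. The lowest of them was thus below the lowest Hox promoter. The medians of −log10 q were 12.6 and 10.5 in replicates 1 and 2 for Hox genes, against 177 and 124 for all genes. Hox promoter regions were also narrower, with median widths of 896.5 and 927.5 bp, against 1254 and 1240.5 bp. The gap in signal was similar for the 20 Hox genes with a CpG-rich start, whose median was 4.10, against 11.6 for all such genes. No test was made of these differences, since both libraries are of 1 group and genes of a cluster are neighbours.

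**Figure D1:**
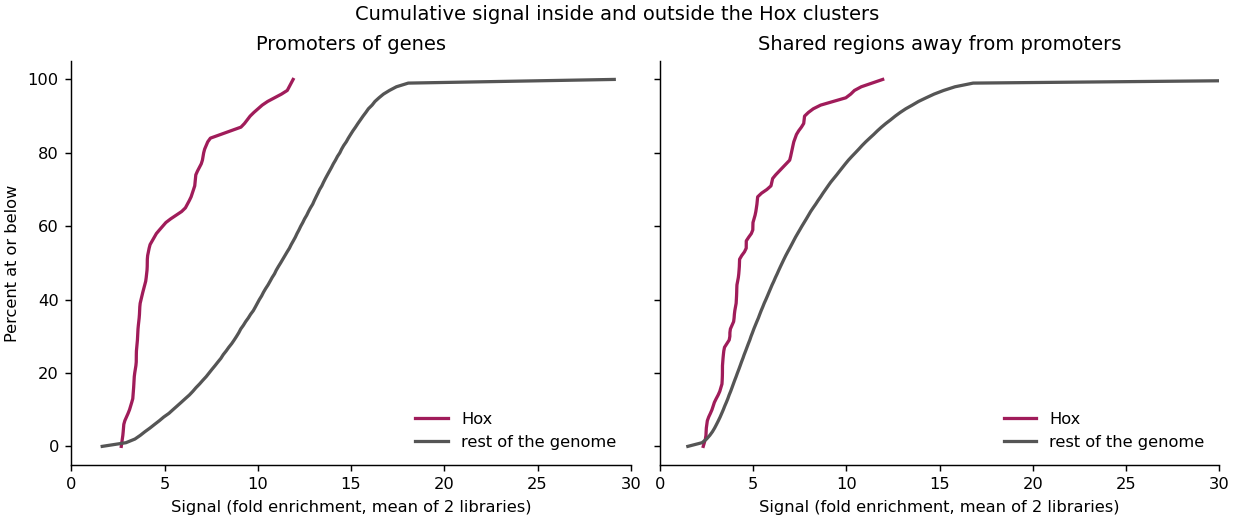
Cumulative distributions of signal (fold enrichment, mean of 2 libraries) for promoter regions of genes (left) and for shared regions away from promoters (right), with the percent at or below each value on the y axis. The Hox curve lies to the left of the rest of the genome in both panels except at the lowest values, where the weakest Hox regions, at 2.67 (left) and 2.33 (right), are above the weakest regions elsewhere.

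Paralog group 4 held some of the most open promoters. Hoxa4 had a signal of 11.9 in each library, 11.9 ± 0.03 on average (SD, n = 2 here and below), at the 56th percentile of all accessible promoters. Hoxb4, long studied for its role in the growth of blood stem cells, had 10.3 and 10.4. Hoxd4 had 6.12 and 8.65, and Hoxc4 had 4.96 and 3.18. All 4 genes of the group had a region in both libraries, but Hoxc4 was only at the 4.58th percentile of accessible promoters. In group 1, which patterns the hindbrain, Hoxd1 had 8.27 and 11.0, and Hoxb1 had 3.48 and 3.61. Hoxa4 was above the genome-wide median of 11.2 in both libraries. The libraries differed most at Hoxd1, 9.63 ± 1.93, and Hoxd4, 7.38 ± 1.78.

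The sequences before the starts of Hoxb4 and Hoxa5 are set side by side because one promoter was among the strongest of the clusters and the other had no region in either library. They are the 250 bases before the start on the gene's strand, from RefSeq on GRCm38.p6, with CG dinucleotides in capitals. They were picked after their values were seen, from the 22 Hox symbols that the RefSeq promoter table holds.
Hoxb4 at chr11:96318017-96318266, plus strand: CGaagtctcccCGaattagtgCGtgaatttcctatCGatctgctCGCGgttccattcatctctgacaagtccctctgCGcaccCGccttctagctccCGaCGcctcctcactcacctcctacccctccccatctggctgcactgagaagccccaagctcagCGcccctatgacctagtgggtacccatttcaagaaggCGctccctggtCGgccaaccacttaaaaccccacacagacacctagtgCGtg
Hoxa5 at chr6:52204588-52204837, minus strand: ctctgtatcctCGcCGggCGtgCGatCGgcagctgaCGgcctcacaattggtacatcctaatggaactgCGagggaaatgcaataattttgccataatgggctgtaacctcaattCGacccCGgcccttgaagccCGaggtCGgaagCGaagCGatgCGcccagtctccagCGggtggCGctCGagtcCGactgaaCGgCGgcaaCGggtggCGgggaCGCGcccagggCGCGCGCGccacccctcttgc
The Hoxa5 stretch holds 28 CG dinucleotides and the Hoxb4 stretch holds 14, so the promoter with no region is the richer in CG. By the 1 kb window around its start Hoxa5, with 54.6% G and C, was just under the 55% that defined a CpG-rich start. The nearest summits to the Hoxa5 start were 7220 and 7180 bp away.

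Hoxa5 was 1 of 5 Hox genes with no promoter region in either library, beside Hoxa6, Hoxb2, Hoxb3 and Hoxb8. They belong to the anterior and central groups, and none had a CpG-rich start. Hoxa6 lies next to Hoxa5, and its nearest summits were 3085 and 3045 bp from the start, in the intronic region at chr6:52211287-52212370 that was also nearest to Hoxa5. This region had signals of 7.38 and 6.77. For Hoxb2 and Hoxb8 the nearest summits were closer. The Hoxb2 start was 1519 and 1376 bp from the summits of a strong exonic region with signals of 11.0 and 9.12. The Hoxb8 start was 1433 bp from the summit in both libraries, in a region with signals of 4.06 and 5.21. At Hoxb3 the distances were 2807 and 2910 bp. With a limit of 2000 bp, 36 of 39 Hox genes had a region in both libraries, and Hoxa5, Hoxa6 and Hoxb3 remained without one.

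Hoxb5 and Hoxc12 had a promoter region in 1 library alone. At Hoxb5 both libraries had an overlapping region, but its summit lay 595 bp from the start in replicate 2 and 1130 bp in replicate 1. At Hoxc12 replicate 1 had a region of signal 3.61, and the nearest summit of replicate 2 was 1721 bp away. Just inside the limit were Hoxd12, with summits 909 and 923 bp from the start, and Hoxa11, with 808 and 850 bp.

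**Figure D2:**
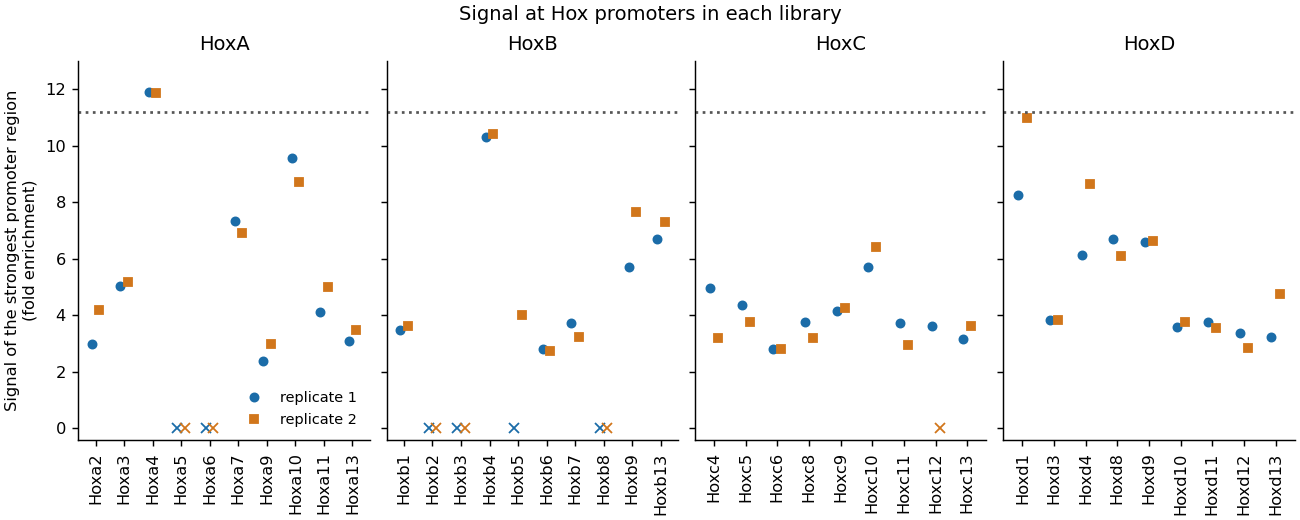
Signal (fold enrichment, y axis) of the strongest promoter region of the Hox genes described (x axis, by cluster and paralog group) in replicate 1 (circles) and replicate 2 (squares). Crosses at 0 mark a gene with no promoter region in that library, and the dotted line is the median of all accessible promoters, 11.2, which Hoxa4 passes in both libraries.

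The posterior groups, 9 to 13, which pattern the limbs, trunk end and genitalia, had regions most often but at low signal. Of 16 posterior genes, 15 had a region in both libraries, against 11 of 15 central genes (groups 4 to 8) and 6 of 8 anterior genes (groups 1 to 3). Of all protein-coding genes 62.8% had one, and of those with a CpG-rich start 95.1%. The classes also differed in CpG-rich starts, held by 12 posterior, 7 central and 3 anterior genes. Whether the class mattered beyond this was not tested. With a limit of 500 bp several posterior genes, among them Hoxa11, Hoxc13 and Hoxd12, lost their region, while no anterior gene did. The order of the classes therefore depends on the limit. The median signals were 3.99, 4.07 and 4.47 in that order. Hoxa10, with 9.57 and 8.72, was the strongest of the posterior genes. Hoxb13 followed with 6.70 and 7.31, and it lies alone at the far end of HoxB. Hoxb9 had 5.70 and 7.65, and Hoxd9 had 6.61 and 6.62. By contrast Hoxa9, which is active in blood progenitors and in leukaemia, had 2.37 and 2.98, the lowest mean of all 32 genes. Hoxa13 had 3.10 and 3.48 and Hoxd13 had 3.24 and 4.74, so none of these 3 promoters came near the genome-wide median.

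The central genes showed the widest contrast within a class. Hoxa7, with 7.33 and 6.90, and Hoxd8, with 6.69 and 6.11, were above the median of the Hox genes. Hoxb6, with 2.80 and 2.72, and Hoxc6, with 2.81 and 2.82, were below the 1st percentile of all accessible promoters. The only other gene of group 6, Hoxa6, had no promoter region. The strongest promoter region of Hoxa13, and that of Hoxd3, was a different one in each library, so their means join separate sites.

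The other Hox promoters with a region in both libraries had low signals throughout. In HoxA, Hoxa3 had 5.04 and 5.19, Hoxa11 had 4.11 and 5.02, and Hoxa2 had 2.98 and 4.17. In HoxB, Hoxb7 had 3.73 and 3.24. In HoxC, apart from Hoxc10 at 5.69 and 6.43, every mean was between 2.82 and 4.20, with Hoxc9 the highest of them at 4.13 and 4.27. In HoxD, Hoxd3, Hoxd10, Hoxd11 and Hoxd12 had means between 3.10 and 3.83. The libraries were close at many of these weak promoters, as at Hoxd3, 3.83 ± 0.005, and Hoxc6, 2.82 ± 0.006, although the Hoxd3 values come from separate regions. They were farther apart at Hoxc4, 4.07 ± 1.26, and Hoxd13, 3.99 ± 1.06.

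The summits also lay farther from the starts than is usual for promoters. The median distance from the strongest promoter summit to the nearest start was 259 and 278 bp for the 32 Hox genes, against 77 and 78 bp for all accessible genes. In both libraries the summit was downstream of the nearest start for 20 of the 32 Hox genes (62.5%), against 35.0% of all accessible genes, and upstream for 8 (25%), against 51.6%. Hoxb4 shows the downstream position at a strong promoter, with summits 416 and 421 bp past the start, beyond the bases printed for it. At Hoxa4 they lay 391 and 273 bp before the start. Summits were more than 500 bp away in both libraries for 5 Hox genes (15.6%), Hoxa11, Hoxc4, Hoxc5, Hoxc13 and Hoxd12, against 6.20% of all accessible genes.

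**Figure D3:**
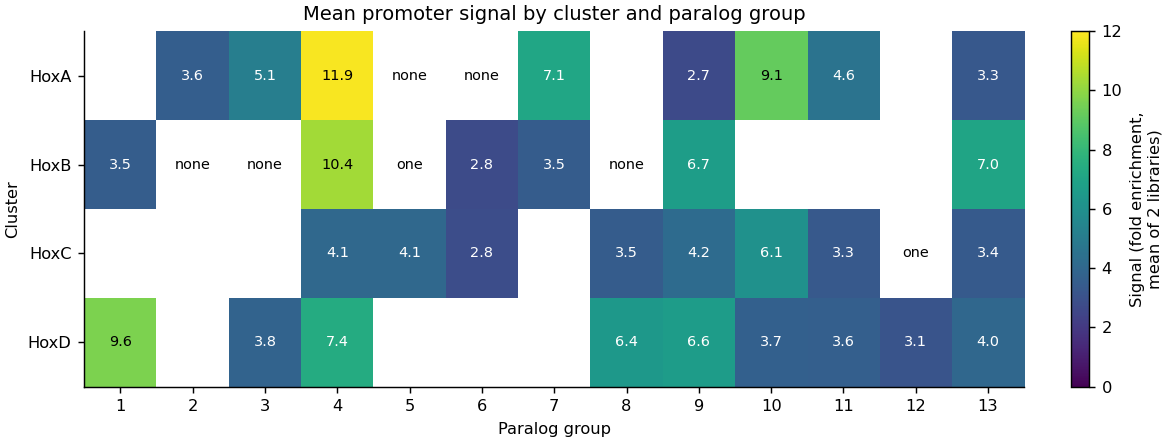
Mean promoter signal (fold enrichment, colour and number) by cluster (rows) and paralog group (columns) for the genes described that have a region in both libraries. The words one and none mark genes with a region in 1 library or in neither, empty cells have no gene described here, and group 4 reaches 11.9 in HoxA.

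Across the windows of the clusters, regions were dense but weak. The 4 windows held 15.5 and 13.5 peaks per 100 kb in replicates 1 and 2, against 2.86 and 2.74 on the standard chromosomes, and peaks covered 11.4% and 10.1% of the windows, against 2.13% and 2.06%. Hox windows hold many gene starts in little space, and no allowance was made for that. How the background of the signal was set is not known. Density and signal may therefore not be independent, and whether density bears on signal was not tested. Median signal was 3.83 and 3.86 in the windows, against 6.50 and 6.50 in all peaks. Median −log10 q was 9.63 and 8.26, against 30.3 and 23.9. Width did not follow signal, with medians of 632 and 692.5 bp in the windows, against 628 and 638 bp. A −log10 q under 5 was seen for 17.8% and 29.5% of window peaks, against 9.21% and 12.1% of all peaks.

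The clusters were close in median signal. Median signal in replicates 1 and 2 was 3.71 and 3.93 in HoxA, 4.62 and 4.15 in HoxB, 3.74 and 3.47 in HoxC, and 3.43 and 4.25 in HoxD. HoxB was the highest in replicate 1 and HoxD in replicate 2, so the libraries do not give 1 order. Median −log10 q was 9.81 and 9.17 in HoxA, 16.3 and 11.3 in HoxB, 7.52 and 5.16 in HoxC, and 7.30 and 12.0 in HoxD. HoxB was above HoxA and HoxC in both libraries by both measures, and HoxC had the lowest −log10 q of HoxA, HoxB and HoxC in both. Median width was 880 and 763.5 bp in HoxA, against 531 and 586.5 bp in HoxB, 488 and 590 bp in HoxC, and 598 and 898 bp in HoxD. HoxA peaks were thus wider than those of HoxB and HoxC in both libraries, while HoxD was below HoxA in replicate 1 and above it in replicate 2.

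**Figure D4:**
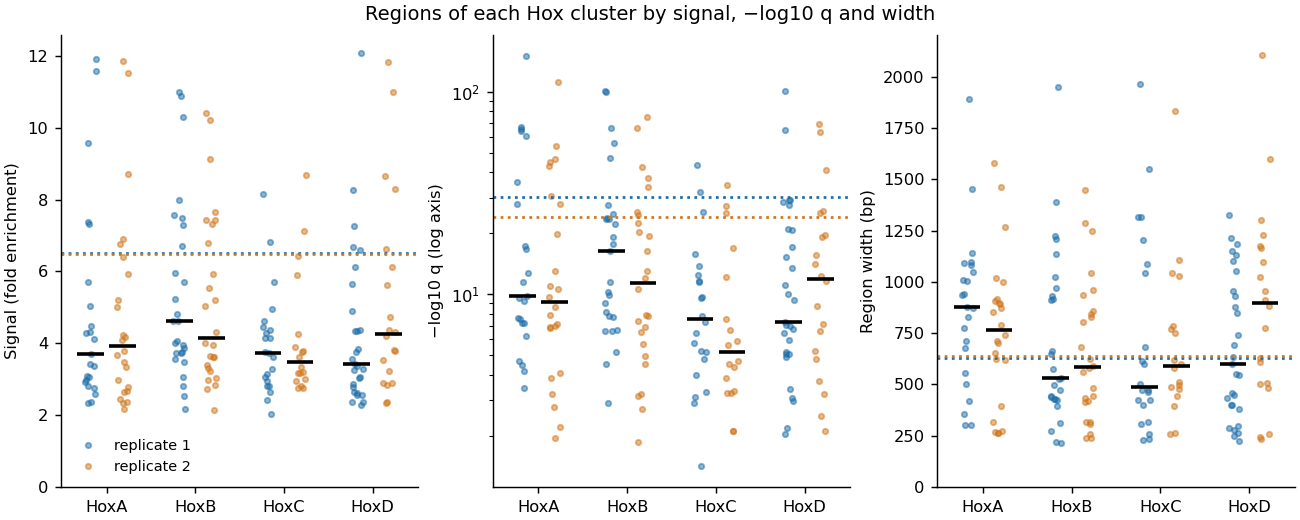
Signal (fold enrichment), −log10 q (log axis) and width (bp) of every peak in the window of each Hox cluster, in replicate 1 (blue) and replicate 2 (orange). Black bars are medians and dotted lines are the medians of all peaks of each library, and for signal all 8 bars lie below the line at 6.50.

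HoxA had 23 and 24 peaks, HoxB 27 and 26, HoxC 22 and 18, and HoxD 29 and 20. HoxD therefore had the most peaks per 100 kb in replicate 1, 21.2, but HoxA had the most in replicate 2, 16.5. Of the replicate 1 peaks in the windows, 82 (81.2%, exact Clopper-Pearson 95% interval 72.2 to 88.3) overlapped a peak of replicate 2, against 86.5% of all its peaks. Of the replicate 2 peaks, 84 (95.5%, interval 88.8 to 98.7) overlapped a peak of replicate 1, against 90.3%. These intervals cover counting error only. The order of the clusters differed by library. Of the replicate 1 peaks, 23 of 23 were matched in HoxA, 22 of 27 in HoxB, 15 of 22 in HoxC and 22 of 29 in HoxD. Of the replicate 2 peaks, 23 of 24 were matched in HoxA, 24 of 26 in HoxB, 17 of 18 in HoxC and 20 of 20 in HoxD. Merged over the libraries there were 103 regions, of which 80 came from both libraries, 19 from replicate 1 only and 4 from replicate 2 only. The single-library regions were weak, with a median signal of 2.83 and a maximum of 4.63.

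**Figure D5:**
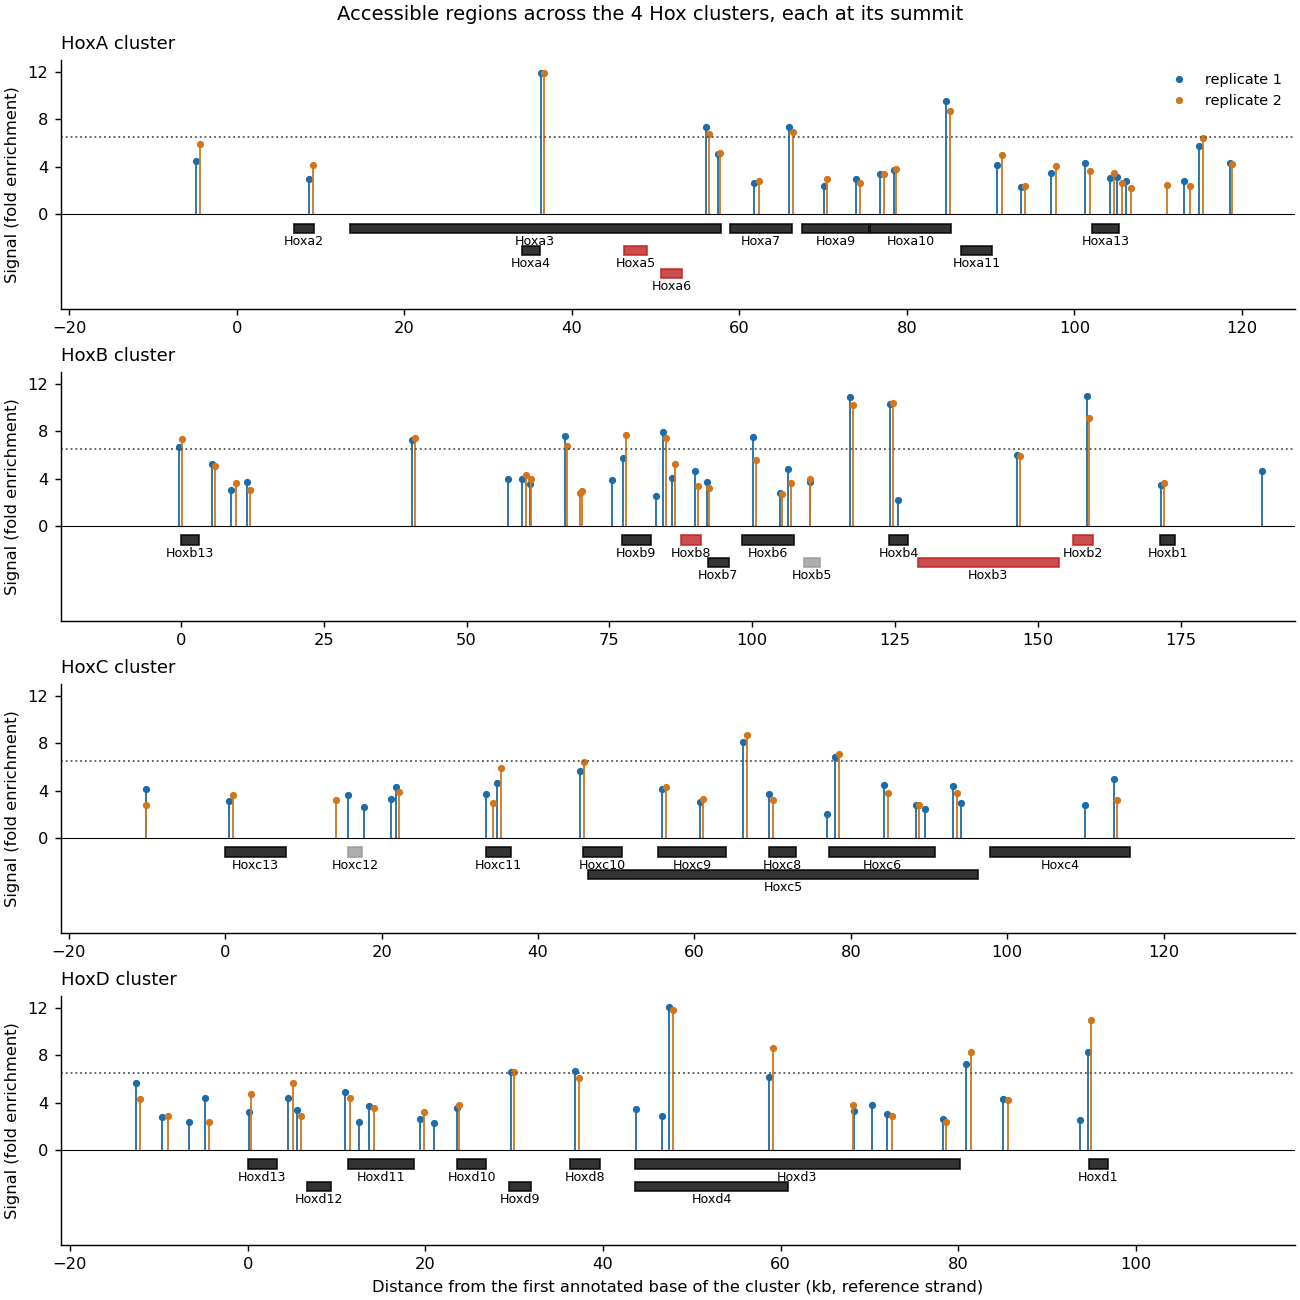
Signal (fold enrichment, y axis) of the regions described in each Hox cluster at their summits (x axis, kb from the first annotated base) in replicate 1 (blue) and replicate 2 (orange). Boxes are the Hox genes described, black with a promoter region in both libraries, grey in 1 and red in neither, and the dotted line is the median of all peaks, 6.50, above which a few regions of each cluster stand.

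The map of the clusters shows a few tall regions among many low ones. Of the 80 shared regions, 49 were below the 25th percentile of signal of all shared regions and 0 were at or above the 90th. In HoxA the promoters of Hoxa4 and Hoxa10 were among the strongest 3. In HoxB the highest mean signal was that of an intergenic region at chr11:96311044-96312181, 6578 bp from the Hoxb4 start, with 10.9 and 10.2. The Hoxb4 promoter and the exonic region near Hoxb2, at chr11:96352675-96353607, came next.

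In HoxC the strongest region was intronic, at chr15:102987162-102988252, 3037 bp from the nearest Hox start, that of Hoxc8, with signals of 8.15 and 8.67. The next were another intronic region at chr15:102998702-103000018, with 6.83 and 7.11, and the Hoxc10 promoter, with 5.69 and 6.43. No HoxC promoter therefore reached the median of all peaks in either library. In HoxD the strongest region was intronic, within the overlapping annotated spans of Hoxd3 and Hoxd4. It lay at chr2:74715804-74716433, with 12.1 and 11.8, the highest mean among the 80 shared regions. Its summit was 35 bp from the annotated start of Hoxd3os1, an antisense transcript of the Hoxd3 locus. The Hoxd1 promoter and an intergenic region at chr2:74749286-74750162, with 7.25 and 8.28, came next.

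The widest region of a cluster was not its strongest in either library. Widest in both libraries were the Hoxa11 promoter region in HoxA, with widths of 1891 and 1580 bp and signals of 4.11 and 5.02, and the Hoxc9 promoter region in HoxC, with widths of 1965 and 1833 bp and signals of 4.13 and 4.27. In HoxB and HoxD the libraries differed in the widest region. In HoxB it lay at Hoxb5 in replicate 1, with 1951 bp and a signal of 3.72, and at Hoxb9 in replicate 2, with 1447 bp and a signal of 7.65. In HoxD it lay at Hoxd9 in replicate 1, with 1329 bp and a signal of 6.61. In replicate 2 it lay at the start of Evx2, a homeobox gene beside Hoxd13, with 2109 bp and a signal of 2.89.

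Each cluster also had stretches with no peak in either library. The longest was 28.6 kb in HoxB, in the interval between Hoxb13 and Hoxb9. The longest in HoxA was 26.2 kb, at chr6:52164903-52191053, which is 24.8% of the cluster and holds a start of Hoxa3. Those of HoxC and HoxD were 15.4 and 10.5 kb, with starts of Hoxc4 and Hoxd4 inside. The genes named had a region at another annotated start, so an accessible gene here need not be accessible at each of its starts.

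Noncoding genes share these clusters. Of 20 long noncoding genes with a start in the windows, 10 had a summit of either library within 1000 bp of a start, against 30.2% of all such genes. So had 3 of 7 microRNA genes, against 16.3% of all. The windows are dense in regions, and no allowance was made for that. Haglr shared the region of Hoxd1, with its start 86 bp from the summit. Hottip, at the posterior end of HoxA, was 817 bp from a region of 2.80 and 2.18, among the weakest of the cluster. Hotair, in HoxC, had its nearest summit 4571 bp away. Of the microRNA genes, Mir196b and Mir615 had a region in both libraries and Mir196a-1 in replicate 2 alone. Mir10a and Mir10b were 1523 and 1137 bp from the nearest summit, in the Hoxb4 and Hoxd4 promoter regions. The other protein-coding genes with starts in the windows were Gm28308, which shared the region of Hoxa3, Evx2, and 5730596B20Rik, which had no region.

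Regions of the Hox windows differed in makeup from those elsewhere. Of the 80 shared regions, 38 (47.5%) were promoter regions, against 20.9% of 66767 shared regions outside, and 7 (8.75%) were intronic, against 38.6%. The other 26 intergenic and 9 exonic regions made up 32.5% and 11.3%, against 35.9% and 4.54%. Gene layout differs between the windows and the rest of the genome, and these shares make no allowance for it. Signal was lower for promoters, with a median of 3.80 in Hox windows and 10.5 outside, and less so for other regions, with 4.27 and 6.56. Away from promoters, Hox regions had a median of 56.8% G and C against 48.0%, and a ratio of observed to expected CG of 0.57 against 0.21. At promoters that ratio was 0.80 in both.

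Short sequence motifs were searched in the 200 bp around each summit, on both strands. A match is a description of the letters and not a bound site, and motif frequency moves with base composition. The AP-1 motif TGANTCA, bound by Fos and Jun proteins in activated T cells, was in 7 of 80 Hox regions (8.75%, exact interval 3.59 to 17.2), against 24.7% of regions outside. Away from promoters it was in 5 of 42 (11.9%), against 29.8%. The RUNX motif TGTGGTT was in 1 region (1.25%, interval 0.032 to 6.77), 9359 bp from the Hoxb13 start, against 8.87%. Away from promoters that was 1 of 42 (2.38%), against 10.5%. It was in none of the 38 promoter regions, which allows up to 7.89%, against 2.81% of promoters outside. The ETS motif CCGGAAG was in 3 (3.75%), against 4.18%, but in 0 of the 38 promoter regions, which allows up to 7.89%, against 13.2% of promoters outside. Away from promoters it was in 3 of 42 (7.14%), against 1.79%.

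The consensus of CTCF, the insulator protein that divides Hox clusters into domains in other tissues, had no match in the 80 regions, against 5.41% outside. A count of 0 allows a share of up to 3.75% (3 counts), and the exact interval reaches 4.51%. Outside, the share was 1.29% at promoters and 6.50% away from them, and promoters were a larger part of the Hox regions. The 5.41% is thus not for a like mix of regions. With 1 mismatch allowed the consensus was in 5 regions (6.25%), against 16.0%. Away from promoters that was 3 of 42 (7.14%), against 18.5%, and at promoters 5.26%, against 6.32%. The 5 were at the Hoxa7 and Hoxa10 promoters and at intergenic regions near Hoxa13, Hoxb8 and Hoxd12. The homeodomain motif TAATTA was in 3 (3.75%, interval 0.78 to 10.6), against 2.35%, in the Hoxc10 and Hoxd11 promoter regions and an intergenic region near Hoxd11. The joint motif of PBX and HOX proteins, TGATTNAT, was in 4 (5.00%, interval 1.38 to 12.3), against 3.41%, among them the Hoxa2 and Hoxd11 promoter regions and an intergenic region near Hoxd3. For homeodomain, PBX-HOX and ETS over all regions the share outside lay inside the interval of the Hox share. No match says only that these letters were not in the window.

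Genes of the machinery that acts on Hox clusters mostly had a promoter region in both libraries, as did 62.8% of all genes and 95.1% of genes with a CpG-rich start. All 20 Polycomb genes had one, and all 20 have a CpG-rich start. Their median signal of 10.6 was below the 11.2 of all genes with a region. The strongest were Pcgf6 at 14.8, a subunit of a variant complex, and Phc2 at 13.9. The weakest were Pcgf2 at 3.95 and Phc3 at 4.17. Of 14 Trithorax and demethylase genes, 11 of them with a CpG-rich start, 13 had one, with a median of 9.14. They were led by Psip1 at 13.6 and Wdr5 at 12.7, with Dot1l at 3.53 and Kmt2d at 6.14 lowest. Kdm6b, an H3K27 demethylase, had no summit near its start. Of 9 CTCF and cohesin genes, all with a CpG-rich start, 8 had one, with a median of 12.5. They were led by Smc3 at 15.5 and Smc1a at 13.1, with Maz at 5.39 and Stag2 at 6.75 lowest, and Nipbl had none. A region has a single summit, which can lie far from a start that the region covers, so a gene without a summit near its start may still be covered.

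The TALE genes encode the homeodomain partners with which HOX proteins bind DNA. Of 9, 4 of them with a CpG-rich start, 8 had a promoter region in both libraries, against 62.8% of all genes. Their median signal was 11.4, against 11.2 for all genes with a region. Pbx4, at 14.8 and 14.3, was among the strongest 2. Pbx2, at 2.56 and 2.28, and Pknox2, at 6.29 and 6.76, were the weakest, and Meis2 had a region in replicate 1 alone, at 3.29. Of 6 stem and progenitor genes, 5 had a region in both libraries, with Meis1, which is also a TALE gene, at 7.69 and 7.07, and Cd34 had none.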

How the data were processed

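Peaks of 2 ATAC-seq libraries of 1 group, on mm10 per the labels, were used as deposited. Aligner, peak caller, threshold and read depth are not given in the sources used here. The authors' score (column 5) is limited at 1000 and was not used further. The deposited signal (column 7) is a ratio, read from its values as fold enrichment. The authors' −log10 p was not used, and their −log10 q was used to filter and describe peaks. No scaling between libraries is stated.

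Only peaks on the autosomes, X and Y entered. Genes and 54361 starts were from GENCODE mouse release M21, and sequence was from GRCm38.p6. A promoter was accessible if each library had a summit within 1000 bp of a start of a protein-coding transcript, and the strongest such peak gave its values. Regions were shared if they overlapped by at least 1 bp, and merged regions took the strongest summit. A CpG-rich start had, in 1 kb around it, at least 55% G and C and an observed to expected CG ratio of at least 0.65. All Hox genes and neighbouring genes are in the counts. Of the 4 lists of Hox regulators, the 2 strongest, the 2 weakest and those without a region are named, except for a few items not reported here. The members and lists were chosen with earlier results of these data known. No test between conditions was possible. Python 3.11.15, pandas 2.3.3 and SciPy were used, and the code was tested on simulated peaks. Alternatives covered promoter distance, start choice, thresholds, flanks, overlap, motif windows and each library alone.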

Additional observations from a re-analysis of the deposited data

How the results depend on the processing

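Of 98 alternative values, 82 stayed within 1.5 times the count, within the SD of the libraries or within the exact 95% interval. For the cluster medians of signal, −log10 q and width, the value of 1 library always lies within the SD of the 2. Those single-library alternatives therefore could not move, and they say nothing on stability. The Hox promoter count was 12 among the 50000 strongest peaks of each library, and 22 to 36 in the other alternatives, of which 3, on start choice and region overlap, were chosen after seeing the data. A −log10 q of at least 5, which removes weak peaks by its construction, moved median signal to 4.45 in HoxA, 5.01 in HoxB and 4.24 in HoxC. It moved median −log10 q to 12.3, 17.8, 11.4 and 13.4 in HoxA to HoxD, median width to 912.5 bp in HoxA and 709.75 bp in HoxC, and the HoxC peak count to 12.5. With an overlap of 50% of both regions, 68.3% of replicate 1 and 78.4% of replicate 2 window peaks were shared. In a window of 100 bp centred on the summit, RUNX matches were 0% and PBX-HOX matches 1.25%. In the 200 bp window, CTCF with 1 mismatch, chosen after seeing the data, gave 6.25%. Each library alone gave 33 accessible Hox promoters. No paired analysis was possible because there was 1 group. Unknown depth limits every statement on absent regions, and signals of 2 libraries were not scaled to each other.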
